A study of Macaca fascicularis with 6 samples.

Results

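Transcripts of glucose uptake, glycolysis and lactate export were followed through 10 listed genes: the glucose transporter SLC2A1, the enzymes HK2, ALDOA, ALDOC, GAPDH, PGK1, ENO1, PKM and LDHA, and the lactate transporter SLC16A3. They were looked up by symbol in the gene tables of all 6 samples, and 6 of the 10 were found in every table, out of 14623 genes in all. The 6 were SLC2A1, HK2, ALDOC, GAPDH, ENO1 and SLC16A3, and each passed the filter on low counts. ALDOA, PGK1, PKM and LDHA matched no row by symbol and were not analysed here, so the lactate-forming step itself has no value below.

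The samples were epithelial cells from the corneas of wild-type (WT) cynomolgus monkeys (Macaca fascicularis), taken without injury or at day 1 or day 3 after a corneal injury, with 2 samples a group. Cells were captured on the 10x Genomics platform, and their full-length cDNA was read by HIT-scISOseq, which resolves isoforms with long reads. The tables held 7895 cell barcodes, 1068 to 1565 a sample, with a total count of 3733442 to 4928103 per sample, and any pair of libraries shared 0 to 2 barcodes. The labels name neither the animals nor the kind of injury, so a p-value here speaks of the scatter among the sequenced samples and that scatter may be technical.

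Glycolysis turns glucose into pyruvate and yields ATP without oxygen. SLC2A1 (GLUT1) carries glucose across the membrane, HK2 phosphorylates it, and ALDOC, a form of aldolase best known from brain, splits the fructose bisphosphate formed later. GAPDH and ENO1 work further down the chain, and SLC16A3 (MCT4) exports lactate with a proton. The corneal epithelium has no blood vessels, stores glycogen, and is known to rely on glycolysis and to release lactate, above all when it is short of oxygen or being repaired.

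The labelled tissue was checked against markers. The 6 corneal epithelium markers together had 23275 to 33269 CPM (counts scaled to a common library size) in the 6 samples, and the keratins KRT12 and KRT3 were present in each. Counts of 4 of 8 conjunctival and goblet cell markers were found in every sample, together at 2524 to 4793 CPM. Keratocyte and fibroblast markers had 185 to 701 CPM, most of it DCN, from 2 of 8 markers in the uninjured samples and 6 or 7 of 8 after injury. These marker sums are per unscaled total. LUM and COL1A2 were at 0 in both uninjured samples, and had 29.2 and 29.7 CPM (LUM) and 16.6 and 18.1 CPM (COL1A2) at day 3. Immune markers had 154 to 229 CPM, most of it LYZ. Melanocyte markers had 20.9 to 97.8 CPM, most of it KIT in the uninjured samples. Vascular markers had 1.18 to 5.28 CPM, and all 6 red blood cell markers were at 0.

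All 6 genes rose by day 1, most of all SLC16A3 and HK2, and all 6 were still above the uninjured level at day 3, when ALDOC, GAPDH and SLC2A1 stood highest. To measure this, counts were summed over all barcodes of a sample and tested with edgeR's quasi-likelihood F test over 12294 genes, with the Benjamini-Hochberg threshold at 0.05. Day 1 against uninjured called 6 of 6 genes, all of them higher, where 62.2% of all genes were called, 30.5% higher and 31.7% lower. Day 3 against uninjured again called 6 of 6, all higher, where 55.2% of all genes were called, 28.8% higher and 26.4% lower. The median log2 change of the 6 genes was 0.97 at day 1 and 1.42 at day 3, beside -0.06 and -0.03 over all genes tested. With scaling to totals alone, which moved the medians of all genes to -0.40 and -0.46, 2385 genes were higher and 5805 lower at day 1 (3751 and 3895 with TMM), and 1980 and 6202 at day 3 (3545 and 3247 with TMM). Under it 5 of the 6 passed as higher at day 1 and 4 of the 6 at day 3. In such sums more cells of a kind and more RNA per cell cannot be told apart. Uninjured and day 3 samples also differed in the kind of isoform table, as given with the isoforms below. In day 3 against uninjured, any effect of that difference on gene counts cannot be told apart from the day. Day 1 had 1 sample of each kind, whose levels are given with each gene below. With 1 of each, such an effect cannot be told apart from the scatter of samples, and it was not tested.

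**Figure D1:**
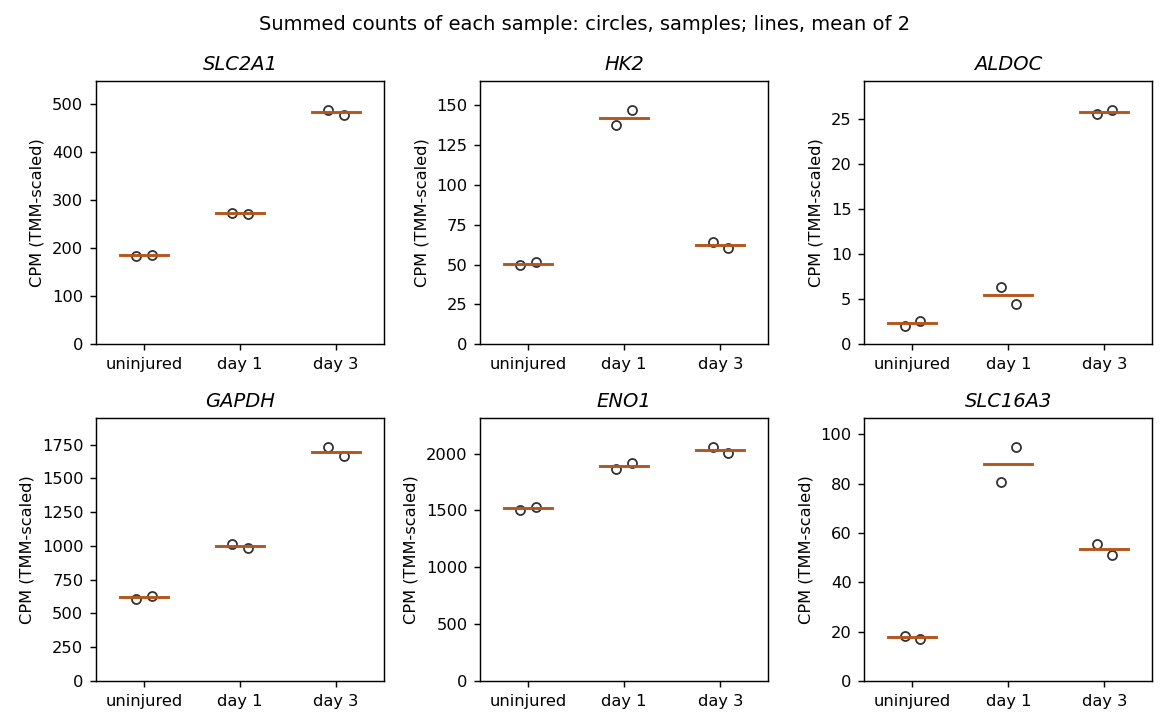
Levels of the 6 genes in each sample, in TMM-scaled CPM of the summed barcodes; circles are samples, lines the mean of 2, and axes start at 0. HK2 and SLC16A3 were highest at day 1, while SLC2A1, ALDOC and GAPDH were highest at day 3.

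SLC2A1, the glucose transporter, was followed as transcript counts, with no measure of uptake. It had 184 and 185 CPM in uninjured samples, 273 and 271 CPM at day 1, and 486 and 477 CPM at day 3. The replicates lay close together and the 3 groups did not overlap, with day 3 highest. The change was 1.47-fold at day 1 (log2 0.56 ± 0.0746 SE, edgeR adjusted p = 5.19e-05) and 2.61-fold at day 3 (log2 1.38 ± 0.0739 SE, adjusted p = 3.84e-08). Day 3 also exceeded day 1, by 0.82 on the log2 scale (adjusted p = 2.59e-06).

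HK2, which commits glucose to the cell by phosphorylation, had 49.4 and 51.5 CPM in uninjured samples, 137 and 147 CPM at day 1, and 64.2 and 60.3 CPM at day 3. Day 1 stood well above both other groups, and day 3 lay just above uninjured. The day 1 change was 2.81-fold (log2 1.49 ± 0.0803 SE, edgeR adjusted p = 3.35e-08). The day 3 change was 1.23-fold (log2 0.30 ± 0.0888 SE, adjusted p = 0.0125). That call was lost without uninjured replicate 1 (adjusted p = 0.079) and without day 3 replicate 1 (adjusted p = 0.0855), and with DESeq2 (adjusted p = 0.187), and with totals alone its sign turned to -0.12. Against day 1, HK2 at day 3 fell by 1.19 on the log2 scale (adjusted p = 3.6e-07).

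ALDOC rested on few counts. The uninjured samples held 10 and 15, the day 1 samples 29 and 16, and the day 3 samples 111 and 106. These came to 1.99 and 2.62 CPM in uninjured samples, 6.39 and 4.44 CPM at day 1, and 25.6 and 26.0 CPM at day 3. The day 1 samples were spread more widely than the others, and day 3 was far above both earlier groups. ALDOC rose 10.97-fold at day 3 (log2 3.46 ± 0.221 SE, edgeR adjusted p = 1.72e-07), the largest change of the 6 genes. At day 1 the change was 2.36-fold (log2 1.24 ± 0.314 SE, adjusted p = 0.00488), but without day 1 replicate 1 it was 0.92 with an adjusted p of 0.0843, and DESeq2 gave an adjusted p of 0.0667.

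GAPDH, which oxidises glyceraldehyde phosphate and makes NADH, had 610 and 628 CPM in uninjured samples, 1017 and 984 CPM at day 1, and 1733 and 1664 CPM at day 3. Each group lay above the one before it without overlap. The change was 1.62-fold at day 1 (log2 0.69 ± 0.0761 SE, edgeR adjusted p = 1.11e-05) and 2.74-fold at day 3 (log2 1.46 ± 0.0769 SE, adjusted p = 3.54e-08). GAPDH is widely used as a reference gene, and here it differed between the groups. GAPDH and ENO1 have processed pseudogenes in primate genomes, and how the authors' counting treated reads that fit several copies is not given in the sources used here, so their counts are uncertain to that extent.

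ENO1, the enolase that makes phosphoenolpyruvate, had 1507 and 1528 CPM in uninjured samples, 1864 and 1918 CPM at day 1, and 2058 and 2005 CPM at day 3. The uninjured samples were lowest, and the gap between day 1 and day 3 was small. The changes were the smallest of the 6 at day 1 and close to that of HK2 at day 3, 1.25-fold at day 1 (log2 0.32 ± 0.0737 SE, edgeR adjusted p = 0.00282) and 1.34-fold at day 3 (log2 0.42 ± 0.0737 SE, adjusted p = 0.000516). With totals alone they turned to -0.018 and -0.00075 and were not called. Day 3 did not pass against day 1 (log2 0.10 ± 0.0736 SE, adjusted p = 0.248).

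SLC16A3, the lactate transporter, had 18.1 and 17.1 CPM in uninjured samples, 80.9 and 94.9 CPM at day 1, and 55.5 and 51.3 CPM at day 3. Day 1 was highest, day 3 was in between, and the 3 groups did not overlap. The change was 4.97-fold at day 1 (log2 2.31 ± 0.116 SE, edgeR adjusted p = 1.89e-08), the largest of the 6 genes on that day, and 3.03-fold at day 3 (log2 1.601 ± 0.125 SE, adjusted p = 8.49e-07). SLC16A3 fell by 0.71 on the log2 scale between day 1 and day 3 (adjusted p = 9.62e-05).

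Between day 1 and day 3 the 6 genes therefore moved apart, with 3 higher at day 3 (ALDOC, SLC2A1 and GAPDH), 2 lower (HK2 and SLC16A3) and ENO1 not called. In that comparison 59.3% of all genes were called, 30.5% higher and 28.8% lower. The day 1 and day 3 comparisons share the uninjured samples, so their values are given side by side and not as independent evidence. Keratocyte and fibroblast markers moved with the groups, at 499 to 643 CPM in uninjured samples, 185 to 190 CPM at day 1 and 697 to 701 CPM at day 3. Without barcodes that held 3 or more counts of keratocyte, immune, melanocyte, vascular and red blood cell markers together (16.4% to 62.8% of a sample's barcodes), all 6 genes were still called higher at day 1. At day 3 the calls of ENO1 (log2 0.12, edgeR adjusted p = 0.243) and HK2 (log2 0.22, adjusted p = 0.16) were lost, and ALDOC changed by 3.96, GAPDH by 1.49, SLC16A3 by 1.55 and SLC2A1 by 0.93 on the log2 scale, all still called.

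The next comparison was between barcodes with a relatively high share of KRT12 and barcodes with a relatively high share of KRT14. KRT12 is the keratin of differentiated corneal epithelium, and KRT14 a keratin of basal epithelial cells. A barcode was KRT12-high when the KRT12 share of its counts lay in the top 33.3% of its own sample and its KRT14 share did not, and KRT14-high in the reverse case. This gave 509 and 456 KRT12-high against 509 and 455 KRT14-high barcodes in the uninjured samples, 454 and 392 against the same numbers at day 1, and 281 and 258 against the same numbers at day 3. These are ranges of a share and not cell types. In each sample 13 to 98 barcodes lay in both top ranges and 450 to 534 in neither, and 23 to 160 lay within 10% of the KRT12 threshold and 13 to 106 within 10% of the KRT14 threshold.

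The KRT14 threshold itself differed between groups, at 0.136% and 0.0839% of a barcode's counts in uninjured samples, against 0.0388% and 0.0496% on day 1 and 2.22% and 2.04% on day 3. At the depths given below, the uninjured and day 1 thresholds came to few KRT14 counts per barcode, with at least 1 needed. When at least 10 KRT14 counts and 4 times as many as of KRT12 were asked for, 178 and 124 barcodes were KRT14-high at day 1. What KRT14-high barcodes held differed between groups. In uninjured samples they held the limbal marker KRT15 at 9661 and 8995 CPM and GPHA2 at 618 and 545 CPM, beside 482 and 588 CPM of KRT15 and 1.89 and 4.17 CPM of GPHA2 in KRT12-high barcodes. At day 3 GPHA2 was at 0 in both ranges and KRT12-high barcodes also carried KRT14, at 8789 and 8340 CPM against 45527 and 41453 CPM in KRT14-high barcodes. KRT3, the partner of KRT12, was at 5623 to 7103 CPM in KRT12-high barcodes and at 47.7 to 913 CPM in KRT14-high barcodes over the 6 samples. The ranges differed in depth, with a median of 3474 and 4470 counts per KRT12-high barcode against 1521 and 1784 per KRT14-high barcode in uninjured samples, 3620 and 3428 against 2369 and 2079 at day 1, and 4364 and 4057 against 4895 and 4510 at day 3.

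In uninjured corneas HK2, ENO1 and SLC2A1 were higher in KRT12-high barcodes. After injury the balance shifted towards KRT14-high barcodes, where SLC2A1, GAPDH and SLC16A3 were higher on both days. The calls of SLC2A1 in each group and of SLC16A3 at day 1 were lost under some alternatives, given with each gene below. Counts were summed per sample and range and tested with edgeR over 10498 genes, with the sample as a block. In uninjured samples 3 of the 6 genes were higher in KRT12-high barcodes and none lower, where 39.4% of all genes were called, 19.6% higher and 19.7% lower. At day 1, 1 was higher and 3 lower, where 38.1% were called, 17.5% higher and 20.6% lower. At day 3, 1 was higher and 4 lower, where 17.9% were called, 8.27% higher and 9.68% lower. With totals alone 1220 genes were higher and 709 lower at day 3, against 868 and 1016 with TMM. The median difference of the 6 genes was 0.41 in uninjured samples, -0.39 at day 1 and -0.39 at day 3, beside -0.01, -0.02 and -0.00 over all genes.

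**Figure D2:**
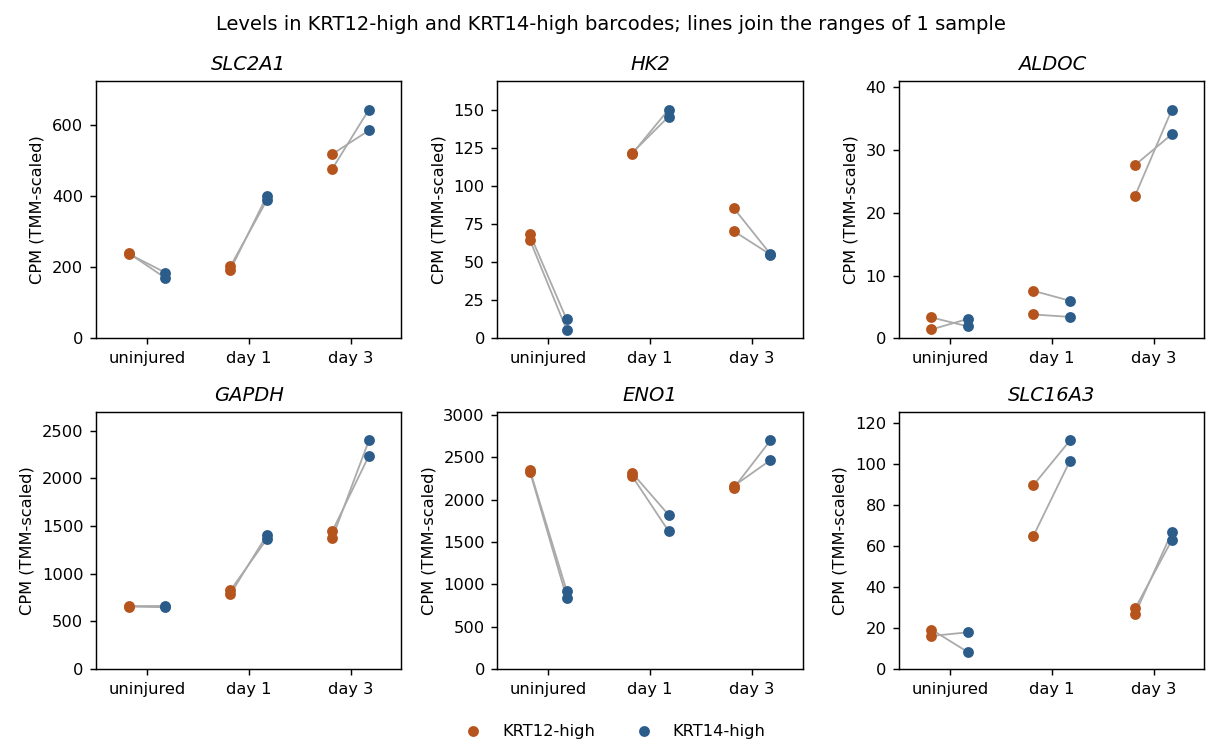
Levels of the 6 genes in KRT12-high (left of each pair) and KRT14-high (right) barcodes of each sample, in TMM-scaled CPM from 0; lines join the 2 ranges of 1 sample. HK2 and ENO1 were higher in KRT12-high barcodes of uninjured samples, and GAPDH was higher in KRT14-high barcodes at day 1 and day 3.

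HK2 showed the widest gap. In uninjured samples it had 68.5 and 64.6 CPM in KRT12-high barcodes against 12.5 and 5.69 CPM in KRT14-high barcodes, the KRT14-high values resting on 12 and 6 counts. At day 1 the ranges were closer, with 121 and 122 CPM in KRT12-high against 151 and 146 CPM in KRT14-high barcodes. At day 3 HK2 had 85.8 and 70.6 CPM in KRT12-high against 55.5 and 55.2 CPM in KRT14-high barcodes. The uninjured difference was 7.38-fold (log2 2.88 ± 0.265 SE, edgeR adjusted p = 2.25e-18), and it was 3.50 on the log2 scale without uninjured replicate 1. At day 1 it was not called (log2 -0.29 ± 0.125 SE, adjusted p = 0.057), but it was called with barcodes of at least 500 counts (-0.31, adjusted p = 0.0395) and without barcodes with other cell types' markers (-0.45, adjusted p = 0.00819). At day 3 it was 0.51 ± 0.179 SE (adjusted p = 0.0338), a call lost without day 3 replicate 1 (0.36, adjusted p = 0.491) without day 3 replicate 2 (0.64, adjusted p = 0.0554), with DESeq2 (adjusted p = 0.408) and without barcodes with other cell types' markers (0.46, adjusted p = 0.357).

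ENO1 had 2329 and 2347 CPM in KRT12-high barcodes against 843 and 925 CPM in KRT14-high barcodes of uninjured samples. At day 1 it had 2282 and 2319 CPM against 1631 and 1823 CPM, and at day 3 it had 2137 and 2161 CPM against 2698 and 2466 CPM. The KRT12-high values stayed within a narrow range while the KRT14-high values were higher on each later day, so that the order of the ranges was opposite at day 3. The difference was 2.64-fold in uninjured samples (log2 1.40 ± 0.0789 SE, edgeR adjusted p = 5.09e-34) and 0.42 ± 0.0757 SE at day 1 (adjusted p = 1.57e-06). At day 3 it was -0.26 ± 0.0751 SE (adjusted p = 0.0055), and it was not called without day 3 replicate 1 (-0.18, adjusted p = 0.242) or with totals alone (-0.15, adjusted p = 0.141).

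SLC2A1 had 240 and 238 CPM in KRT12-high barcodes against 170 and 185 CPM in KRT14-high barcodes of uninjured samples. At day 1 the order was opposite, with 202 and 193 CPM against 389 and 401 CPM, and at day 3 it had 476 and 518 CPM against 643 and 584 CPM. The ranges did not overlap in any group. On the log2 scale the difference was 0.43 ± 0.0993 SE in uninjured samples (edgeR adjusted p = 0.000185), -0.997 ± 0.0923 SE at day 1 (adjusted p = 3.79e-18) and -0.31 ± 0.0768 SE at day 3 (adjusted p = 0.00116). The day 3 call was lost without day 3 replicate 1 (-0.17, adjusted p = 0.437), with DESeq2 (adjusted p = 0.138) and with totals alone (-0.20, adjusted p = 0.0589), and the uninjured one without barcodes with other cell types' markers (0.06, adjusted p = 0.788). When ranges were instead set by at least 10 counts of one keratin and 4 times as many as of the other, the day 1 difference was -0.10 and not called (adjusted p = 0.48).

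GAPDH had 656 and 661 CPM in KRT12-high barcodes against 649 and 662 CPM in KRT14-high barcodes of uninjured samples, values that interleave. At day 1 it had 786 and 825 CPM against 1409 and 1366 CPM, and at day 3 it had 1372 and 1444 CPM against 2396 and 2235 CPM. After injury the ranges were well apart, with KRT14-high above. The log2 difference was 0.01 ± 0.0698 SE in uninjured samples (edgeR adjusted p = 0.966), -0.79 ± 0.0651 SE at day 1 (adjusted p = 3.48e-21) and -0.72 ± 0.0609 SE at day 3 (adjusted p = 4.9e-20).

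SLC16A3 had 19.4 and 16.2 CPM in KRT12-high barcodes against 8.30 and 18.03 CPM in KRT14-high barcodes of uninjured samples, the KRT14-high values from 8 and 19 counts. At day 1 it had 65.0 and 89.9 CPM against 102 and 112 CPM, and at day 3 it had 27.1 and 29.7 CPM against 66.8 and 63.1 CPM. The uninjured ranges overlapped, and KRT14-high barcodes were above on both later days. The log2 difference was 0.40 ± 0.319 SE in uninjured samples (edgeR adjusted p = 0.338), -0.48 ± 0.149 SE at day 1 (adjusted p = 0.00576) and -1.20 ± 0.221 SE at day 3 (adjusted p = 6.41e-06). The day 1 call was lost without day 1 replicate 1 (-0.31, adjusted p = 0.323), with DESeq2 (adjusted p = 0.493) and under the rule of 10 counts and 4 times the other keratin (-0.39, adjusted p = 0.104), where the day 3 difference was -2.40.

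ALDOC had 1.42 and 3.33 CPM in KRT12-high barcodes against 3.11 and 1.90 CPM in KRT14-high barcodes of uninjured samples, from 2 to 8 counts each. At day 1 it had 7.58 and 3.81 CPM against 5.99 and 3.42 CPM, and at day 3 it had 22.8 and 27.6 CPM against 36.4 and 32.5 CPM. No difference was called on any day, with log2 values of -0.03 ± 0.778 SE, 0.28 ± 0.588 SE and -0.47 ± 0.288 SE (edgeR adjusted p = 0.984, 0.755 and 0.295). Counts this low could not show a moderate difference before day 3.

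**Figure D3:**
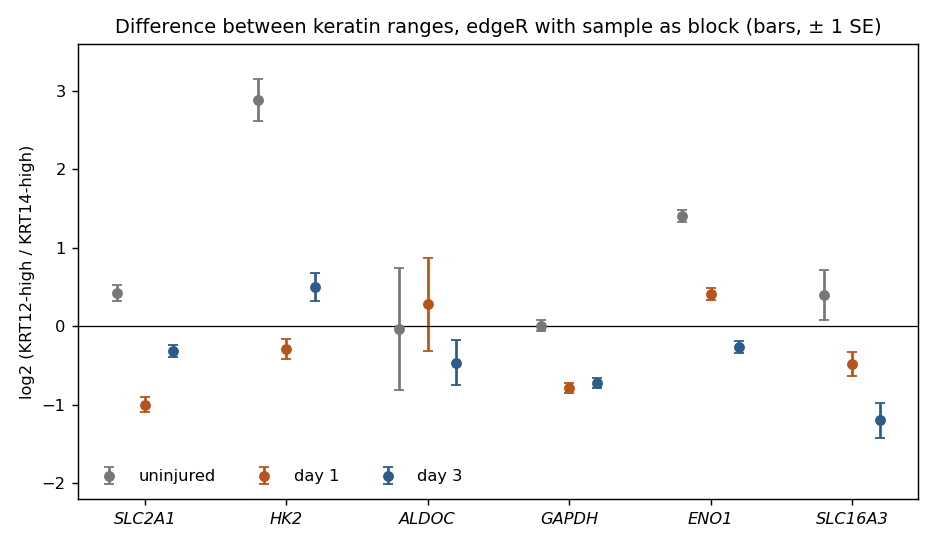
Log2 difference between KRT12-high and KRT14-high barcodes for each gene in uninjured, day 1 and day 3 samples, with bars of 1 SE from edgeR; values above 0 are higher in KRT12-high barcodes. HK2 and ENO1 lie at 2.88 and 1.40 in uninjured samples, and GAPDH and SLC2A1 lie below 0 at day 1 and day 3.

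The difference between the ranges itself changed after injury, always in the direction of KRT14-high barcodes where it was called. In edgeR's test of the difference between the differences, 4 of the 6 genes were called at day 1 against uninjured, where 17.4% of all genes were called, 6.55% higher and 10.8% lower, and 5 of the 6 at day 3, where 20.3% were called, 8.82% higher and 11.5% lower. At day 1 the shift was -3.17 ± 0.300 SE for HK2, -1.42 ± 0.135 SE for SLC2A1, -0.99 ± 0.109 SE for ENO1 and -0.79 ± 0.0953 SE for GAPDH on the log2 scale. SLC16A3 (-0.88, adjusted p = 0.0642) and ALDOC (0.31, adjusted p = 0.893) did not pass, and SLC16A3 passed without uninjured replicate 2 (-1.70, adjusted p = 0.028). At day 3 the shift was -2.38 ± 0.348 SE for HK2, -1.67 ± 0.109 SE for ENO1, -1.600 ± 0.383 SE for SLC16A3, -0.73 ± 0.125 SE for SLC2A1 and -0.73 ± 0.0925 SE for GAPDH. The call of SLC16A3 was lost without uninjured replicate 1 (-1.07, adjusted p = 0.123), with DESeq2 (adjusted p = 0.073) and without barcodes with other cell types' markers (-1.18, adjusted p = 0.142), where that of SLC2A1 was lost too (-0.46, adjusted p = 0.113), and it was -2.44 without uninjured replicate 2. HK2 shifted by -3.77 at day 1 and -2.999 at day 3 without uninjured replicate 1.

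In KRT14-high barcodes, HK2, SLC16A3, SLC2A1, GAPDH and ENO1 were higher than in uninjured samples on both days and ALDOC at day 3. Set against uninjured in a fit of range by group, 5 of 6 rose at day 1, where 52.7% of all genes were called, 26.9% higher and 25.8% lower, and 6 of 6 at day 3, where 47% were called, 24.9% higher and 22% lower. With totals alone the splits were 2082 higher and 3711 lower at day 1 (2825 and 2707 with TMM) and 1639 and 3947 at day 3 (2617 and 2312 with TMM). At day 1 HK2 was 16.5-fold higher (log2 4.04 ± 0.230 SE, edgeR adjusted p = 1.38e-14) and SLC16A3 7.89-fold higher (log2 2.98 ± 0.252 SE, adjusted p = 6.58e-11). Their uninjured KRT14-high values rested on 12 and 6 counts of HK2 and 8 and 19 counts of SLC16A3. SLC2A1 rose 2.22-fold, GAPDH 2.12-fold and ENO1 1.95-fold, and ALDOC did not pass (log2 0.95 ± 0.743 SE, adjusted p = 0.29). At day 3 the log2 changes were 3.75 for ALDOC, 2.62 for HK2, 2.27 for SLC16A3, 1.82 for GAPDH, 1.79 for SLC2A1 and 1.55 for ENO1. HK2 changed by 4.68 at day 1 and 3.27 at day 3 without uninjured replicate 1, and SLC16A3 by 3.66 and 2.96 without uninjured replicate 2. The KRT14 threshold and the makeup of KRT14-high barcodes differed between groups, so the same kinds of cells need not be compared here. GPHA2 had 618 and 545 CPM in these barcodes of uninjured samples, 4.28 and 5.70 CPM at day 1 and 0 at day 3. KRT14-high barcodes held keratocyte and fibroblast markers at 1588 to 1943 CPM in uninjured samples, 414 to 426 CPM at day 1 and 791 to 827 CPM at day 3. Without barcodes with other cell types' markers HK2 rose by 3.16 at day 1 and 1.77 at day 3 and ENO1 by 0.65 and 1.02, all still called.

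Within KRT12-high barcodes fewer of the 6 genes were called. At day 1, 3 of 6 genes were called higher and 1 lower, where 49.9% of all genes were called, 24.9% higher and 25.1% lower, and at day 3, 4 of 6 were called higher, where 36.8% were called, 20.6% higher and 16.2% lower. With totals alone the splits were 1706 higher and 3879 lower at day 1 (2612 and 2631 with TMM) and 1289 and 3545 at day 3 (2158 and 1705 with TMM). At day 1 SLC16A3 rose 4.30-fold (log2 2.11 ± 0.194 SE, edgeR adjusted p = 5.58e-10) and HK2 1.83-fold (log2 0.87 ± 0.125 SE, adjusted p = 1.46e-06). GAPDH was higher by 0.29 (edgeR adjusted p = 0.0193) and SLC2A1 lower by -0.27 (adjusted p = 0.0415), and each of these calls was lost without uninjured replicate 1 (adjusted p = 0.093 and 0.149) and without uninjured replicate 2 (adjusted p = 0.0907 and 0.134). With totals alone GAPDH was at 0.03 (adjusted p = 0.842), and without barcodes with other cell types' markers neither GAPDH (adjusted p = 0.084) nor SLC2A1 (adjusted p = 0.0721) was called. The call of SLC2A1 was also lost without any 1 of the 4 injured samples (adjusted p of 0.0523 to 0.108), and its sign turned, to 0.11, under the rule of 10 counts and 4 times the other keratin. ALDOC was not called at day 1 (log2 1.24, adjusted p = 0.0573), and was called without uninjured replicate 2 (1.97), without day 1 replicate 2 (1.6005), without barcodes with other cell types' markers (1.84) and under the rule of 10 counts (1.44).

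At day 3 in KRT12-high barcodes, ALDOC rose 9.94-fold (log2 3.31 ± 0.405 SE, edgeR adjusted p = 1.36e-07), GAPDH 2.14-fold and SLC2A1 2.08-fold. ALDOC changed by 4.03 without uninjured replicate 2. The call of SLC2A1 was lost under the rule of 10 counts and 4 times the other keratin (0.29, adjusted p = 0.0615). SLC16A3 was higher by 0.67 ± 0.264 SE (adjusted p = 0.0462). That call was lost when any 1 of the 4 samples compared was left out (adjusted p of 0.0524 to 0.201), and its sign turned, to -0.64, under the rule of 10 counts and 4 times the other keratin. HK2 (log2 0.24, adjusted p = 0.199) and ENO1 (log2 -0.12, adjusted p = 0.371) did not pass. With totals alone ENO1 was lower at day 1 (-0.29, adjusted p = 0.022) and at day 3 (-0.47, adjusted p = 0.000506). It was also lower at day 3 without barcodes with other cell types' markers (-0.39, adjusted p = 0.0205) and under the rule of 10 counts (-0.59, adjusted p = 6.12e-05).

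Barcodes in neither top range numbered 450 to 534 a sample. In them HK2 had 59.1 and 74.8 CPM of the unscaled total in uninjured samples, 131 and 160 CPM at day 1, and 52.0 and 50.2 CPM at day 3. SLC16A3 had 27.6 and 21.9 CPM in uninjured samples, 73.0 and 83.7 CPM at day 1, and 65.0 and 56.1 CPM at day 3. ENO1 had 1121 and 1090 CPM in uninjured samples, 1407 and 1385 CPM at day 1, and 1245 and 1276 CPM at day 3. In these barcodes HK2, SLC16A3 and ENO1 were highest at day 1, while SLC2A1, GAPDH and ALDOC were highest at day 3. Between day 1 and day 3 SLC2A1 went from 230 and 246 CPM to 351 and 362 CPM. GAPDH went from 853 and 827 CPM to 1275 and 1241 CPM, and ALDOC from 4.79 and 4.96 CPM to 12.5 and 12.2 CPM.

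The isoform tables add which transcripts carried the counts. An FSM (full splice match) isoform has every junction of a known transcript and an ISM (incomplete splice match) isoform a part of them. NIC isoforms recombine known splice sites, while NNC isoforms include a splice site the annotation lacks. The tables use different naming systems, so isoforms were compared between samples that share names, the uninjured samples and day 1 replicate 1. ALDOC counts were all FSM there, and GAPDH was 93.6% to 94.6% FSM. SLC2A1 was 90.4% to 91.4% NNC, SLC16A3 was NNC throughout, and HK2 was 70.3% to 72.8% ISM with the rest NIC. The tables of day 1 replicate 2 and both day 3 samples listed a single FSM transcript for SLC2A1, SLC16A3, ALDOC, GAPDH and ENO1 and no row for HK2, so these shares follow the table and not the day.

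ENO1 was split between a leading NNC isoform, PB.31671.7, and a leading FSM isoform, PB.31671.18. The NNC isoform took 56.4% of ENO1 isoform counts in day 1 replicate 1 (exact 95% binomial interval 55.2 to 57.5), against 49.1% (47.9 to 50.3) and 49.0% (47.9 to 50.1) in the uninjured samples. The FSM isoform took 39.4% in day 1 replicate 1, against 46.5% in each uninjured sample. The intervals do not overlap, but they cover counting error alone, and with 1 day 1 sample there is no replicate check.

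Between keratin ranges the split differed in both uninjured samples. The NNC isoform took 49.6% (48.1 to 51.0) and 50.4% (49.0 to 51.7) of ENO1 isoform counts in KRT12-high barcodes, against 36.1% (32.6 to 39.6) and 34.5% (31.4 to 37.9) in KRT14-high barcodes. The FSM isoform took 45.8% and 45.0% in KRT12-high barcodes, against 60.5% and 60.9% in KRT14-high barcodes. In day 1 replicate 1 the NNC share was 53.7% (52.0 to 55.4) in KRT12-high and 53.7% (51.3 to 56.1) in KRT14-high barcodes. The FSM share there was 42.5% (40.8 to 44.2) in KRT12-high and 40.4% (38.0 to 42.8) in KRT14-high barcodes. In uninjured samples the range with the lower ENO1 level thus had the larger FSM share. In day 1 replicate 1 the NNC shares lay within each other's intervals, and the intervals of the FSM shares overlapped.

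**Figure D4:**
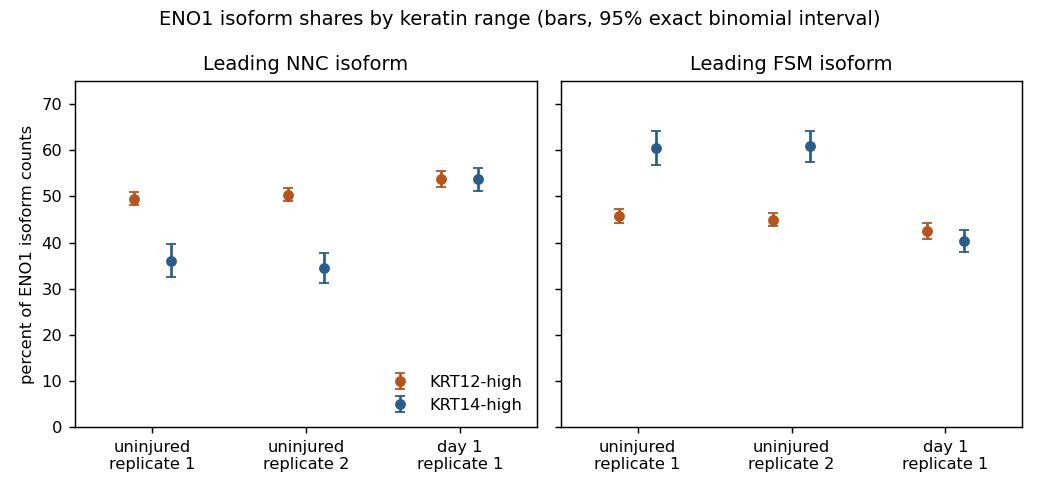
Share of ENO1 isoform counts taken by the leading NNC and FSM isoforms in KRT12-high and KRT14-high barcodes of the 3 samples whose tables share isoform names; bars are exact 95% binomial intervals. The NNC share is 49.6% and 50.4% in KRT12-high against 36.1% and 34.5% in KRT14-high barcodes of uninjured samples, and 53.7% in both at day 1.

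The other glycolysis genes went both ways. Of 8 other glycolysis genes tested, 3 were higher and 3 lower at day 1, and 2 were higher and 3 lower at day 3. Over all genes, 30.5% were higher and 31.7% lower at day 1, and 28.8% higher and 26.4% lower at day 3. These shares stand beside the counts of each list below as well. Lists this small were not tested against them. PGAM1, the mutase between the PGK and enolase steps, rose on both days, with 545 ± 5.61 CPM at day 1 and 716 ± 3.32 CPM at day 3 against 250 ± 0.196 CPM in uninjured samples (SD, n = 2 each; log2 1.13 and 1.52, edgeR adjusted p = 1.89e-07 and 2.25e-08). BPGM, which makes 2,3-bisphosphoglycerate, fell at day 1, with 2.24 ± 0.363 against 12.1 ± 0.612 CPM (SD, n = 2; log2 -2.44). ENO2, the neuronal enolase, passed the test as lower on both days, with 1.102 and 0 CPM at day 1 and 0.921 and 0 CPM at day 3 against 4.18 and 3.84 CPM in uninjured samples.

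A list of 8 other genes covered glucose and lactate transport, with the lactate dehydrogenase subunits LDHB and LDHC among them. Of these 8, 2 were higher and 1 lower at day 1, and 4 were higher and 1 lower at day 3. EMB, the embigin chaperone of monocarboxylate transporters, rose on both days, with 114 ± 8.48 CPM at day 1 and 175 ± 5.83 CPM at day 3 against 51.8 ± 2.77 CPM in uninjured samples (SD, n = 2 each; log2 1.14 and 1.76). LDHB, the subunit that favours pyruvate formation, rose by 0.42 at day 1 and 0.58 at day 3 on the log2 scale (edgeR adjusted p = 0.0013 and 0.000139). The transporter SLC2A6 was at 0 in both day 1 samples, at least 2.20-fold lower than the 0.81 CPM of uninjured samples, a bound from 3 counts over the group. At day 3 SLC2A6 was higher than in uninjured samples, with 4.15 and 6.87 CPM (log2 2.67, edgeR adjusted p = 0.00346).

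**Figure D5:**
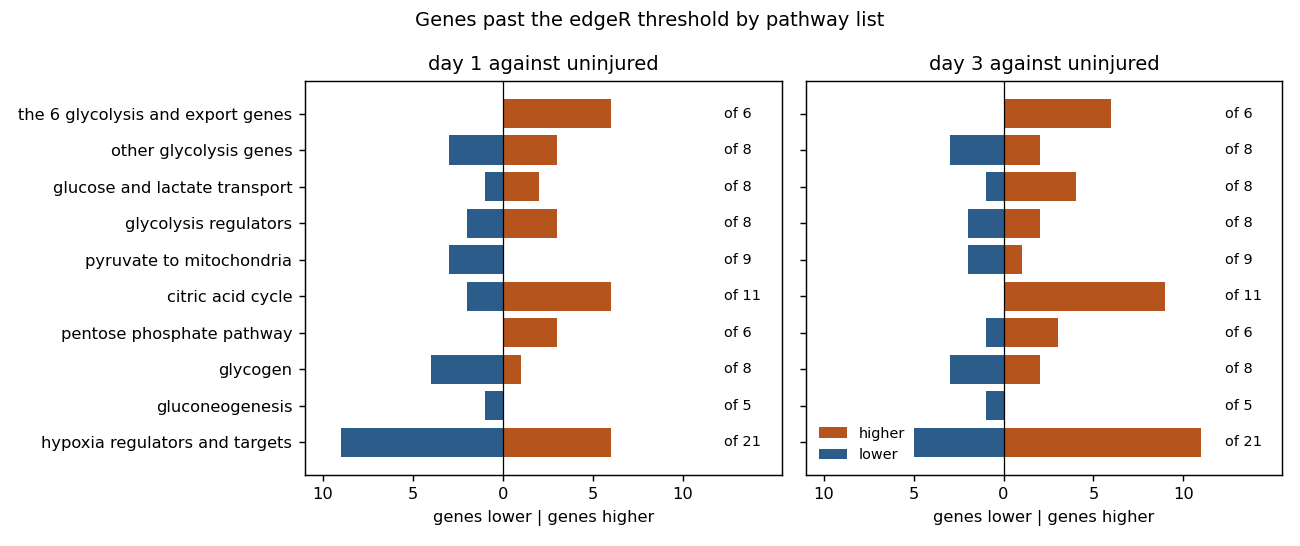
Number of genes past the edgeR threshold, higher to the right and lower to the left, in each pathway list at day 1 and day 3 against uninjured; the number tested stands beside each bar. All 6 glycolysis and export genes are higher on both days, while other glycolysis genes go both ways and the citric acid cycle has 9 of 11 higher at day 3. Over all genes 30.5% were higher and 31.7% lower at day 1, and 28.8% and 26.4% at day 3.

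Among 8 regulators of glycolysis, 3 were higher and 2 lower at day 1, and 2 were higher and 2 lower at day 3. TXNIP, which holds back glucose uptake and is switched on by glucose-sensing factors, had 17.1 ± 0.186 CPM at day 1 and 90.7 ± 6.22 CPM at day 3 against 656 ± 55.7 CPM in uninjured samples (SD, n = 2 each). It fell by 5.26 at day 1 and by 2.85 at day 3 on the log2 scale (edgeR adjusted p = 5.5e-11 and 7.8e-10). Its relative ARRDC4 fell at day 1 (log2 -1.08), and the fructose bisphosphate regulator PFKFB4 rose at day 3, with 18.8 ± 2.69 against 5.44 ± 1.04 CPM (log2 1.80). MYC fell at day 3 (log2 -0.82).

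Of 21 hypoxia regulators and targets outside glycolysis, 6 were higher and 9 lower at day 1, and 11 were higher and 5 lower at day 3. The prolyl hydroxylase EGLN3, a target of the hypoxia-inducible factors, had 120 ± 8.58 CPM at day 1 and 88.5 ± 2.79 CPM at day 3 against 5.34 ± 0.897 CPM in uninjured samples (SD, n = 2 each; log2 4.49 and 4.05, edgeR adjusted p = 3.81e-10 and 9.93e-10). BNIP3, which acts in mitophagy, rose at day 3, with 145 ± 4.58 against 13.2 ± 2.16 CPM (log2 3.46). EPAS1, which encodes HIF-2 alpha, fell at day 3, with 122 ± 1.04 against 597 ± 10.96 CPM (log2 -2.29). HIF1A, in contrast, rose on both days (log2 2.11 at day 1 and 1.99 at day 3, edgeR adjusted p = 3.11e-09 and 5.87e-09). P4HA2 fell at day 1 (log2 -2.49), and CA9 was at 0 in both day 1 samples, at least 5.04-fold lower than its 1.86 CPM in uninjured samples. At day 3 both were higher than in uninjured samples, P4HA2 by 1.65 and CA9 by 1.30 on the log2 scale (edgeR adjusted p = 2.24e-05 and 0.0308).

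Of 9 genes of pyruvate entry into mitochondria and its control, 0 were higher and 3 lower at day 1. Over all genes, 30.5% were higher and 31.7% lower. The 9 included PDK1, PDK2 and PDK3, kinases that shut down pyruvate dehydrogenase, so these counts give no direction for pyruvate entry. PDK3 fell by 1.80 on the log2 scale at day 1, and PDK2 had 8.59 and 7.49 CPM against 17.9 and 20.8 CPM in uninjured samples. At day 3, 1 of the 9 genes was higher and 2 lower, and PDK3 had 7.82 ± 0.660 against 62.4 ± 2.29 CPM (SD, n = 2; log2 -2.99). Of 11 citric acid cycle genes, 6 were higher and 2 lower at day 1, and 9 were higher and 0 lower at day 3, among them CS (log2 0.67 at day 1 and 0.84 at day 3) and MDH2 (0.93 and 0.84). Of 6 pentose phosphate genes, 3 were higher and 0 lower at day 1, and 3 were higher and 1 lower at day 3, with TALDO1 at 0.85 and 1.27. Of 8 glycogen genes, 1 was higher and 4 lower at day 1, and 2 were higher and 3 lower at day 3. The glycogen phosphorylase PYGL rose on both days (0.73 and 0.94), and the synthase GYS1 fell on both (-1.96 and -1.48). Of 5 gluconeogenesis genes, 1 was lower on each day. It was PCK1, with 4.76 ± 1.119 CPM at day 1 and 0 at day 3 against 272 ± 34.2 CPM in uninjured samples (SD, n = 2 each, no SD at 0), at least 764-fold lower at day 3.

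Of the genes beside SLC16A3 in lactate transport, SLC16A1 (MCT1) was lower in KRT12-high barcodes on every day, with 1.78 ± 0.157 against 30.7 ± 15.6 CPM in uninjured samples (SD, n = 2; log2 -4.07, edgeR adjusted p = 2.06e-15), 2.09 against 38.3 CPM at day 1 and 5.99 against 15.4 CPM at day 3. LDHB, a lactate dehydrogenase subunit and not a transporter, was lower in KRT12-high barcodes too, by -0.96 in uninjured samples, -1.47 at day 1 and -1.11 at day 3. EMB was higher in KRT12-high barcodes on every day, with 91.7 ± 5.91 against 3.02 ± 1.59 CPM in uninjured samples, 197 against 32.4 CPM at day 1 and 303 against 111 CPM at day 3 (log2 4.90, 2.62 and 1.44). PGAM1 was higher in KRT12-high barcodes of uninjured samples (log2 0.49) and lower at day 1 (-0.39) and day 3 (-0.67), the order of signs also seen for SLC2A1. TKT of the pentose phosphate pathway was higher in KRT12-high barcodes by 2.35, 1.72 and 0.21. Of the 20 hypoxia genes tested, 8 were lower and 1 higher in KRT12-high barcodes of uninjured samples, 8 lower and 1 higher at day 1, and 10 lower and 0 higher at day 3. Among them DDIT4, a stress-induced inhibitor of mTOR, was lower in all groups (log2 -1.66 in uninjured samples, -2.41 at day 1 and -2.30 at day 3).

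KRT14-high barcodes also differed in markers of other epithelia. Conjunctival and goblet cell markers had 268 to 275 CPM in KRT12-high against 2361 to 2650 CPM in KRT14-high barcodes of uninjured samples, 48.8 to 59.4 against 2290 to 2745 CPM at day 1, and 374 to 504 against 2715 to 3483 CPM at day 3. Keratocyte and fibroblast markers had 194 to 212 against 1588 to 1943 CPM, 87.6 to 96.3 against 414 to 426 CPM, and 695 to 751 against 791 to 827 CPM in the same order. In uninjured KRT14-high barcodes DCN had 1737 and 1394 CPM, with LUM and COL1A2 at 0, so such counts need not mark other cell types. The part of barcodes with these markers in the differences between ranges was not tested, beside the fit without barcodes with keratocyte, immune, melanocyte, vascular and red blood cell markers. In that fit the uninjured difference was 2.13 for HK2 and 1.06 for ENO1, and that of GAPDH was -0.80 at day 1 and -0.84 at day 3, all called.

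Over the 12 sums of sample and range, the 6 genes followed different courses. SLC2A1 and GAPDH were most alike (Pearson r = 0.949 of log2 CPM), and HK2 and ALDOC least (r = 0.221). Among 4197 genes whose log2 CPM averaged 5 or more, BOLA3 (0.973), CALML3 (0.958) and S100A13 (0.952) were closest to SLC2A1. The unnamed gene ENSMFAG00000042132 (0.986), CCT3 (0.977) and CAPRIN1 (0.971) were closest to SLC16A3. For ALDOC they were LSM2 (0.980), APRT (0.969) and NDUFA11 (0.961), out of 4198. The 12 sums come from 6 libraries, a pair from each, so these values are a description.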

How the data were processed

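The authors deposited, for each of the 6 samples, a gene by barcode table and an isoform by barcode table, both of whole-number count values per the file contents; Cell Ranger is named in the submitters' processing notes without a role, while the sources used here give no aligner, genome build, annotation or barcode filter. All 7895 barcodes were used, and doublets were not removed. Counts were summed per sample, or per sample and keratin range, since cells are not replicates. Day comparisons were fitted on group alone by the quasi-likelihood F test of edgeR 4.0.16 under R 4.3.3, after filterByExpr and TMM scaling. KRT12-high against KRT14-high had the sample as a block, and changes within a range were fitted by range and group. CPM values are scaled by TMM factors, 0.888 to 1.19 over samples. The biological coefficient of variation was 0.0651 for samples. Between replicates the chi-square over its degrees of freedom was 1.92 in uninjured samples, 4.50 at day 1 and 2.06 at day 3, above sampling noise. The scripts were tested on simulated data. Alternatives were DESeq2 1.42.0, totals alone, no low-count filter, barcodes with at least 500 counts, barcodes without other cell types' markers, other keratin rules, the replicate block and leaving out each sample. Isoform shares have exact 95% binomial intervals, which cover counting error alone; counting all barcodes of the isoform tables was the alternative there. The genes and lists were chosen with earlier results of these data known. Named beside them are genes from among the up to 3 of each pathway list with the largest change past the threshold in a comparison, and, chosen after their values were seen, their values in the other groups, and the 3 closest genes in course. HIF1A was named beside EPAS1 outside that rule, also after its values were seen. Likeness to LDHA and a planned search of promoters were not run, and sequences and coordinates are not used here.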

Additional observations from a re-analysis of the deposited data

Results flagged for a closer look

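In 9 cases the difference between KRT12-high and KRT14-high barcodes itself differed between an injured group and uninjured samples, by edgeR's test of that difference with the sample as a block. At day 1 against uninjured, the difference moved by -3.17 for HK2 (log2 -0.29 at day 1 against 2.88 in uninjured samples, adjusted p = 9.65e-17), by -1.42 for SLC2A1 (-0.997 against 0.43, adjusted p = 1.13e-16), by -0.99 for ENO1 (0.42 against 1.40, adjusted p = 3.21e-13) and by -0.79 for GAPDH (-0.79 against 0.01, adjusted p = 1.22e-11).

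At day 3 against uninjured it moved by -2.38 for HK2 (log2 0.51 at day 3 against 2.88 in uninjured samples, adjusted p = 1.01e-08), by -1.67 for ENO1 (-0.26 against 1.40, adjusted p = 6.43e-28), by -1.60 for SLC16A3 (-1.20 against 0.40, adjusted p = 0.00064), by -0.73 for SLC2A1 (-0.31 against 0.43, adjusted p = 8.72e-07) and by -0.73 for GAPDH (-0.72 against 0.01, adjusted p = 7.27e-11). Both comparisons share the uninjured samples. In each of the 9 cases the shift was towards KRT14-high barcodes. The KRT14 threshold and the makeup of KRT14-high barcodes also differed between groups, as given with the ranges, and their part in these shifts was not tested.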

How the results depend on the processing

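With 2 samples a group, few counts of ALDOC and of HK2 and SLC16A3 in uninjured KRT14-high barcodes limit what could be detected, and with a sample left out the lone sample of its group is assumed to vary like the others. Of the log2 changes of the 6 genes under the alternatives, 889 kept their direction and side of the threshold, 49 fell short of it, 12 passed it anew and 22 turned in sign. The 60 isoform shares could not move under their alternative, so it was no check of them. In uninjured samples and day 1 replicate 1 all isoform barcodes were already used. In the other samples each gene had a single transcript. The cause of the changes below was not tested. In the sums of samples DESeq2 called 4623 genes for day 1 and 3569 for day 3, each against uninjured, and 4295 for day 3 against day 1. Between keratin ranges it called 1694 of 11410 genes with an adjusted p-value in uninjured samples, 1723 of 11410 at day 1 and 560 of 5224 at day 3. For the shift of that difference it called 519 of 6911 at day 1 and 749 of 7473 at day 3. Where edgeR tested 10498 genes and all 6 members throughout, DESeq2 gave 5 of the 6 an adjusted p-value in the last 3 of these comparisons. Within KRT12-high barcodes it called 2641 at day 1 and 1954 at day 3, and within KRT14-high barcodes 3501 and 2983. Without barcodes with other cell types' markers the counts were 2541 in uninjured samples and 926 at day 3 between ranges, 890 and 912 for the shifts at day 1 and day 3, and 2499 and 3172 at day 3 within KRT12-high and KRT14-high barcodes. Members called fell to 2 between ranges at day 1 under the rule of 10 counts and 4 times the other keratin, to 3 between ranges at day 3 with DESeq2 and with totals alone, and to 3 for the shift at day 3 without barcodes with other cell types' markers.

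Leaving out 1 sample gave 2720 to 4211 genes between ranges in uninjured samples, 2471 to 4073 at day 1 (lowest without day 1 replicate 1) and 930 to 1844 at day 3 (lowest without day 3 replicate 1), 1079 to 1922 and 1434 to 2073 for the shifts at day 1 and day 3, and 2636 to 4004 at day 3 within KRT12-high barcodes. Members called were 2 to 5 between ranges at day 3 and 2 to 4 at day 1 within KRT12-high barcodes. In the sums of samples day 1 against uninjured gave 6520 to 7525 genes, day 3 against uninjured 5570 to 7058 and day 3 against day 1 6162 to 7101.

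Signs turned as follows. With totals alone ENO1 was -0.018 at day 1 and -0.00075 at day 3, HK2 was -0.12 at day 3 and -0.10 at day 3 within KRT12-high barcodes, and ALDOC was 0.024 between ranges in uninjured samples. Between ranges in uninjured samples ALDOC was 0.48 under the rule of 10 counts and -1.06 to 0.80 with 1 sample left out, GAPDH was -0.012 with DESeq2, -0.039 with the top 25% and -0.15 without barcodes with other cell types' markers, and SLC16A3 was -0.13 to 1.24 with 1 sample left out. Without barcodes with other cell types' markers ENO1 was -0.15 at day 3 against day 1, ALDOC was -0.22 between ranges at day 1, and its shift at day 3 was 0.52. That shift was 0.11 with the top 25% and -1.27 to 0.59 with 1 sample left out, and the ALDOC shift at day 1 was -0.50 to 1.36. Within KRT12-high barcodes at day 1 ENO1 was 0.0048 with DESeq2, 0.0030 without the filter and 0.0197 under the rule of 10 counts, where SLC2A1 was 0.11 and SLC16A3 at day 3 was -0.64.

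The deviations of samples with the same replicate number correlated by 0.021 to 0.050. With 2 samples a group this cannot show whether such samples share an animal or a run. With the replicate block 7302 genes were called for day 1, 6421 for day 3 and 6959 between these days, with as many of the 6 genes in each direction. With no replicate block 3855, 3731 and 1511 were called between ranges in uninjured, day 1 and day 3 samples, and ENO1 at day 3 was not (adjusted p = 0.0855).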
